A study of Mus musculus with 59 samples.

Results

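Peaks of CTCF and of the chromatin remodeller SMARCA5 were followed at 4 mouse genes, Sall4, Lin28a, Lin28b and Trim71, in all 16 deposited peak lists of a chromatin immunoprecipitation and sequencing (ChIP-seq) study of reprogramming. The 4 genes were chosen by name out of 21887 protein-coding genes with a mapped span. The rule uses no measured value, but earlier results of these data were known when the genes were chosen. Each window is the gene's RefSeq span on mm10 widened by 50 kb on both sides. The windows are chr2:168698332-168817201 for Sall4, chr4:133953330-134069196 for Lin28a, chr10:45326617-45536314 for Lin28b and chr9:114461268-114614369 for Trim71. They held between 6 and 54 peaks per CTCF list, of 23600 to 89567 peaks in a whole list, and 32 of the 46965 SMARCA5 peaks. Merging overlapping peaks of all lists gave 62 sites, numbered within each window from the lower coordinate: 13 at Sall4, 15 at Lin28a, 10 at Lin28b and 24 at Trim71.

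The study asked how CTCF is placed at somatic and pluripotency genes while fibroblasts become induced pluripotent cells. Mouse embryonic fibroblasts of the OG2 strain, whose GFP is driven by the Oct4 promoter, were reprogrammed with virally delivered Oct4, Sox2, Klf4 and c-Myc (OSKM). In the knockdown arm they carried an shRNA against Ctcf or the control shRNA shLuci, and both arms were profiled at day 0, in sorted Thy1+ cells of days 3 and 9, in SSEA1- Thy1- and in SSEA1+ cells of days 6 and 9, and in Oct4-GFP+ cells of day 12. Thy1 marks fibroblasts, SSEA1 marks cells that have entered reprogramming, and Oct4-GFP marks cells near pluripotency, so these sorted populations are selected cells and not whole cultures. At day 10, cells with OSKM, added Ctcf and a Smarca5 shRNA, cells with OSKM and added Ctcf, and OSKM control cells were profiled. The E14Tg2a line of embryonic stem cells (ESCs) was profiled for CTCF as a Smarca5 knockout made with a Cas9 nickase and as the wild type, and SMARCA5 was mapped by streptavidin pull-down of an overexpressed Flag-biotin-tagged protein in picked clones that also carried the biotin ligase BirA.

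Each group has 1 list, made from 1 to 3 samples, so no comparison has a replicate error and none was tested. The CTCF lists of wild-type and of Smarca5 knockout ESCs each came from 1 sample. So did the day 10 list with added Ctcf and the Smarca5 shRNA. The score of every peak is 0 and every peak is 400 bp wide, so a list says where a peak was called and nothing of its height, and read depth is unknown. Lists of the sorted cells have common start positions for the peaks they share, as do the day 10 lists among themselves and the ESC lists among themselves. Of overlapping peaks, 2.43% had the same start in the 2 day 0 lists, 1.52% in the Thy1+ and day 0 control lists and 5.2% in the wild-type ESC and day 12 control lists. For the 2 day 3 Thy1+ samples the titles disagree with the descriptions, and for 1 of them with the source name, on which received the Ctcf shRNA. Each Thy1+ list is used here under the shRNA its own name gives. If the titles are right, each Thy1+ list joins day 3 cells of one shRNA with day 9 cells of the other, and every Thy1+ value below carries that doubt. The labels' protocols describe both ChIP and ChIPmentation, a low-input form of ChIP, without saying which lists come from which, so the method and the stage cannot be told apart.

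SALL4 is a zinc-finger transcription factor of the early embryo and of ESCs, where it works beside OCT4 and NANOG. LIN28A and LIN28B are RNA-binding proteins that block the maturation of let-7 microRNAs, and TRIM71, the mouse counterpart of the worm protein LIN-41, is an RNA-binding TRIM-NHL protein whose own messenger RNA is a let-7 target. In ESCs these genes are active and mature let-7 is scarce, while fibroblasts have much let-7 and little of the 4 proteins. CTCF is a DNA-binding protein that, together with cohesin, anchors chromatin loops and insulates neighbouring regions, and SMARCA5 is the ATPase of ISWI remodellers, which space nucleosomes and are needed for regular CTCF binding in ESCs.

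The mature microRNAs that LIN28 proteins hold back are shown because their common seed defines the pathway that joins Lin28a, Lin28b and Trim71. The sequences come from RefSeq (GRCm38.p6), and capitals mark the seed, bases 2 to 8, which all 11 matched let-7 family genes share.
let-7a-5p: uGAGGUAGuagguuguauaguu
let-7c-5p: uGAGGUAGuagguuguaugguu
let-7f-5p: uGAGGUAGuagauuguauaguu
miR-98-5p: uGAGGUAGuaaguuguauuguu

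The 250 bases before the start of Lin28a, Lin28b and Trim71 are shown because no list had a peak in any of them. Sall4 has no entry in the RefSeq promoter set used, so peaks over its promoter were not examined directly. No list had a peak over either end of the Sall4 span. The nearest sites lay 5248 bp below the lower end and 1852 bp inside the upper end. For Lin28b the start used, at chr10:45470201, lies inside the span, which ends at chr10:45486314. The stretch of the Hmgn2 promoter covered by site 3 of the Lin28a window is shown because it was the only promoter of the RefSeq table in the 4 windows with a peak over it, called in wild-type but not in Smarca5 knockout ESCs. All are read 5′ to 3′ along the minus strand, on which these genes lie (RefSeq, GRCm38.p6), and capitals mark CCCTC, the motif after which CTCF is named, or GAGGG, its reverse complement.
Hmgn2, chr4:133968128-133968241: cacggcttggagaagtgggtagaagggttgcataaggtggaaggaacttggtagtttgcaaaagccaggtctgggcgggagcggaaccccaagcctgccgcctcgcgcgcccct
Lin28a, chr4:134018817-134019066: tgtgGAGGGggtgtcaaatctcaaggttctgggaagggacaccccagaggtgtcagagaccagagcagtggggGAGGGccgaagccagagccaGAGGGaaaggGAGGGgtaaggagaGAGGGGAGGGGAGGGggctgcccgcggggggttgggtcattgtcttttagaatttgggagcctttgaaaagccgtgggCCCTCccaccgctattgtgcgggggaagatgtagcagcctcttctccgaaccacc
Lin28b, chr10:45470202-45470451: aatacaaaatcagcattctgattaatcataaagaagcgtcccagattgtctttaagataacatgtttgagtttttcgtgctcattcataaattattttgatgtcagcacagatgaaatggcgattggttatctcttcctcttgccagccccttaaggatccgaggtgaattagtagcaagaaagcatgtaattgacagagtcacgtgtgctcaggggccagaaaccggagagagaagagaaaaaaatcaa
Trim71, chr9:114564370-114564619: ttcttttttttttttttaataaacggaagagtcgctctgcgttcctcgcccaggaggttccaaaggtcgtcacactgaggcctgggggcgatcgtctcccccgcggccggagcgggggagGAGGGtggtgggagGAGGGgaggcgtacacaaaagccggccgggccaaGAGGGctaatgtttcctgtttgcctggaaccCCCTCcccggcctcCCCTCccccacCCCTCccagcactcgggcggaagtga

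Counted on both strands, with neighbouring matches allowed to overlap, the Lin28a stretch holds 8 such matches, that of Trim71 6, and those of Lin28b and Hmgn2 0. The Hmgn2 stretch has only 114 bases, against 250 in each of the others, so its count cannot be set beside theirs. Of 32851 promoter windows of 250 bases, 60.5% hold at least 1 match, with a median of 1. The GC content was 61.2% at Lin28a, 39.2% at Lin28b and 62.8% at Trim71, against a median of 52.4% over these windows. No match says only that these letters are not in the stretch shown.

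Peaks around all 4 genes were few at day 0 and most numerous in ESCs. Along the control series of day 0, Thy1+, SSEA1- Thy1-, SSEA1+, day 12 Oct4-GFP+ and wild-type ESCs, the Sall4 window held 2, 4, 6, 7, 8 and 12 peaks. The Lin28a window held 2, 3, 5, 6, 7 and 14 peaks in the same series. The Trim71 window held 5, 8, 8, 9, 13 and 19 peaks. Each of these counts was equal to or above that of the stage before. Lin28b differed, with 2, 7, 7, 7, 6 and 9 peaks, so that its Thy1+ count was already above its day 12 count. The whole lists lengthened too, with 28838, 52800, 50890, 51978, 53043 and 83173 peaks. Read per length, the Trim71 window held 12.41 peaks per 100 kb in wild-type ESCs, Lin28a 12.08, Sall4 10.1 and Lin28b 4.292, against a median of 5.701 over all protein-coding genes widened the same way. The density at Trim71 was above that of 93.91% of these genes, and the density at Lin28b above that of 38.51%.

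**Figure D1:**
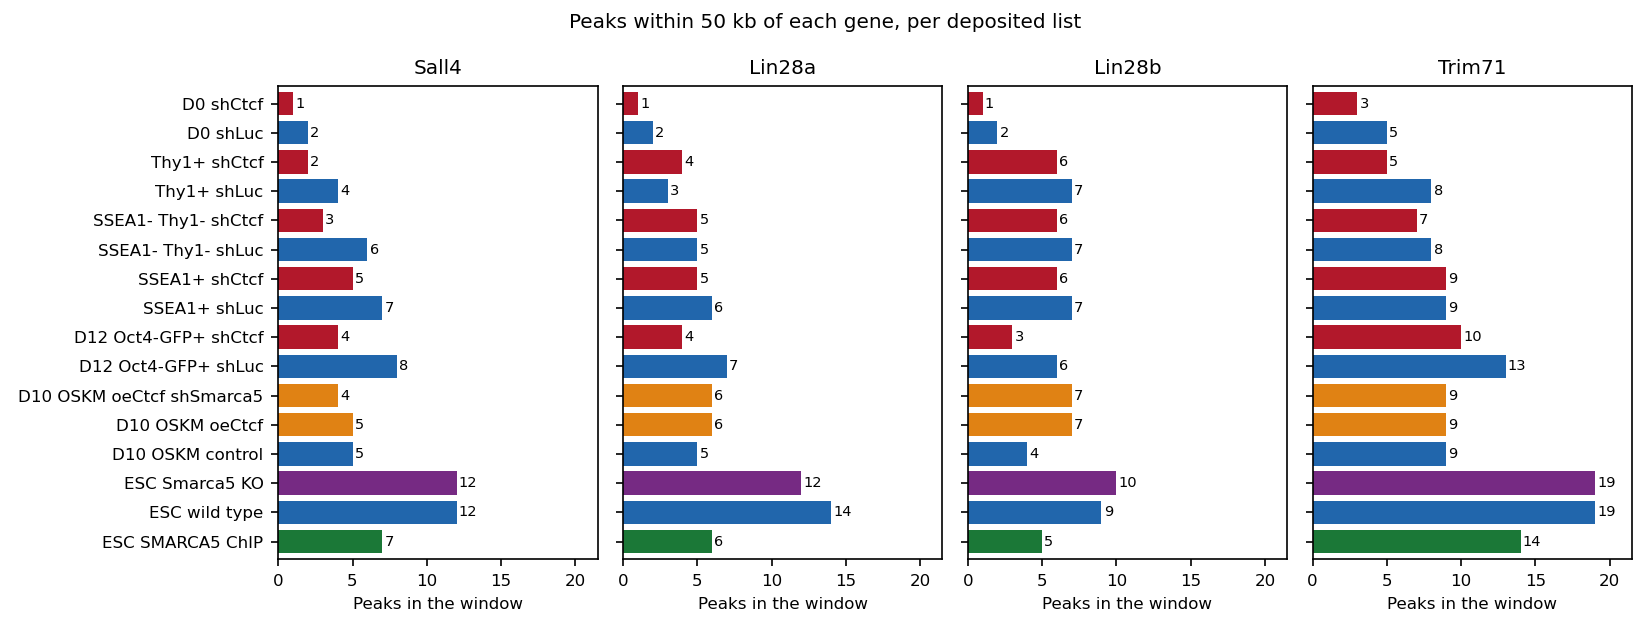
Number of peaks (horizontal axis) within 50 kb of each gene in each of the 16 lists, which run down the page. Red bars are Ctcf shRNA lists, orange the day 10 lists with added Ctcf, purple the Smarca5 knockout, green SMARCA5 and blue the controls, where shLuc stands for shLuci and oeCtcf for added Ctcf. The longest bars are those of the ESC CTCF lists, up to 19 peaks at Trim71, and the shortest those of day 0, with 1 to 5.

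Of the 62 sites, 61 had a CTCF peak in at least 1 list, 5 were in all 15 CTCF lists and 6 were in only 1. At 50 sites CTCF was in neither day 0 list, and 14 sites had CTCF only in ESC lists. The day 0 lists were the shortest of all, with 23600 and 28838 peaks. These counts were not made for merged sites of the whole lists, so they are not read as a trait of the 4 genes. Of the 54 wild-type ESC peaks in the windows 5 were in all other 14 CTCF lists (9.26%, Wilson 95% interval 4.02 to 19.91%), and of the whole wild-type list 19.9% were, a value at the edge of that interval. Intervals given for shares cover counting error only. Wild-type ESC peaks in no day 0, sorted or day 10 list were 11 of 54 (20.4%), and 19.7% of the whole list.

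The Sall4 window had 1 site in every CTCF list, site 5 at chr2:168742666-168743084, which lies in the gap between Atp9a and Sall4, 5248 bp below the Sall4 span, and also carried SMARCA5. At the lower-coordinate side, inside Atp9a, site 2 was in 11 CTCF lists, site 3 in 9 and site 1 in 6. Inside Sall4 there were 2 sites, or 10.6 per 100 kb, against 11 per 100 kb in its flanks. Site 7, at chr2:168764938-168765349 and 1852 bp from the upper end of the span, was in neither day 0 list but in all 4 sorted control lists, the 3 day 10 lists and both ESC lists, with SMARCA5. Site 6, at chr2:168758572-168758971, was in the 2 ESC lists alone. The upper flank has no gene at its sites, and its sites came in at different stages. Site 10 was in the day 0 control alone, site 8 was in the SSEA1- Thy1- and SSEA1+ controls and in ESCs, site 11 (chr2:168777672-168778376) was in all 4 sorted controls and both ESC lists, sites 9 and 13 joined at day 12, and site 12 was in ESCs only, with SMARCA5. None of these upper-flank sites was in a day 10 list.

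The Lin28a window likewise had 1 site in every CTCF list, site 12 at chr4:134035896-134036354, 16700 bp above the span and with SMARCA5. Site 10, at chr4:134013134-134013601, was the only site inside Lin28a, 5215 bp from its start. It was in 13 CTCF lists and absent from 2, the Ctcf shRNA lists of day 0 and of day 12. Site 9, at chr4:134001646-134002099 in the gap between Dhdds and Lin28a, was in 13 lists too, its 2 absences being both day 0 lists. Neither of these 2 sites near the gene had SMARCA5. Site 11, at chr4:134023384-134023783, came nearest to the start at 4568 bp and was in the 2 ESC CTCF lists alone. Site 1, at chr4:133959443-133959842 and 43488 bp below the span, was likewise in the 2 ESC CTCF lists alone, with SMARCA5. Inside Dhdds, which makes the lipid carrier for protein glycosylation, sites 4 and 6 were also in ESCs alone, site 8 was added at day 12, and site 7 (chr4:133987258-133987657) was the only site of the 62 with SMARCA5 and no CTCF in any list. Above the gene, site 14 was in 9 CTCF lists with SMARCA5 and site 15, in Crybg2, in 6.

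**Figure D2:**
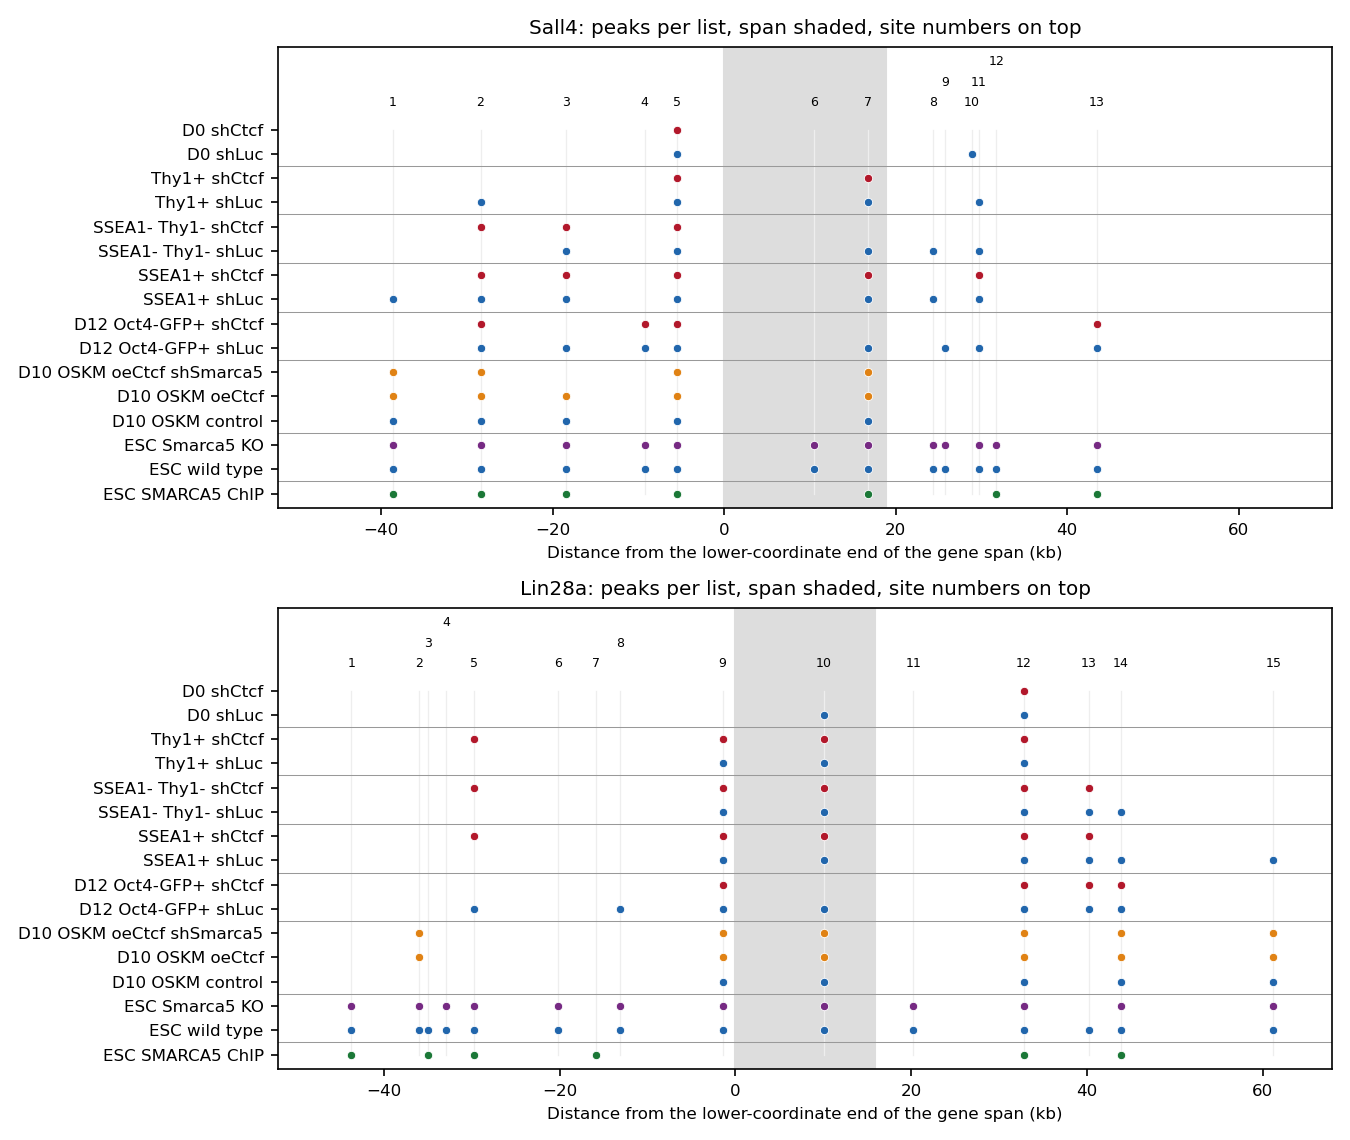
Peaks in the Sall4 (top) and Lin28a (bottom) windows by distance in kb from the lower-coordinate end of the gene span (horizontal axis, span shaded) and by list (rows), each dot a site held by that list and the numbers on top naming the sites. Colours are as in the bar chart of counts. Site 5 at Sall4 and site 12 at Lin28a fill all 15 CTCF rows, and columns with dots in the ESC rows alone are spread over both windows.

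The Lin28b window, the widest at 209698 bp, had the fewest sites. Site 5, at chr10:45373249-45373681 between Bves and Lin28b and 2936 bp below the span, was in all 15 CTCF lists and, unlike the other 4 such sites, had no SMARCA5 peak. Sites 2, 3 and 4 lie in Bves, a gene for a membrane protein of muscle and epithelium, and were in 14, 12 and 11 CTCF lists, each with SMARCA5. Of the 4 sites inside the Lin28b span, site 9 at chr10:45485479-45485962 lies 352 bp from its upper end. It was in all 4 sorted controls, the day 10 and the ESC lists, with SMARCA5. Lin28b lies on the minus strand, and its span reaches above the start whose upstream bases are shown, which is 15278 bp from site 9. The lack of peaks before that start therefore does not cover the upper end of the span. Site 6, at chr10:45381825-45382248, was in the sorted controls and ESCs but not in the day 10 OSKM control. Site 8, 13953 bp from the start whose upstream bases are shown above, and site 1, 40912 bp below the span and with SMARCA5, were in the 2 ESC CTCF lists alone.

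The Trim71 window had 2 sites in every CTCF list, both with SMARCA5. Site 3, at chr9:114498205-114498616, lies in Ccr4, which encodes a chemokine receptor, and site 20, at chr9:114583721-114584135, lies 19352 bp above the span on the side of the start. Of the 24 sites, 10 were inside Trim71, or 18.8 per 100 kb, against 14 per 100 kb in its flanks. Sites 13 and 14 were nearest to the start. Site 14, at chr9:114562681-114563105 and 1264 bp from the start, was in all 3 day 10 lists and both ESC lists, with SMARCA5, and in no day 0 or sorted list. It was 1 of the 23 day 10 OSKM control peaks in the windows, and the only one with that pattern, which 3.06% of the whole list had. Site 13, at chr9:114561562-114561961 and 2408 bp from the start, was in both ESC lists and the day 12 Ctcf shRNA list. Site 10, at chr9:114534773-114535184 inside the gene, was in 9 CTCF lists, namely the controls of SSEA1- Thy1-, SSEA1+ and day 12 cells, the SSEA1+ Ctcf shRNA list, the 3 day 10 lists and both ESC lists, with SMARCA5. Site 18, at chr9:114581340-114581845, was in both day 0 lists and in no other, and site 19 began at 114581887, just above it. Sites 12 and 23 were in ESC lists only, with SMARCA5, and sites 22 to 24 lie in Cnot10, which encodes a subunit of the CCR4-NOT deadenylase.

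**Figure D3:**
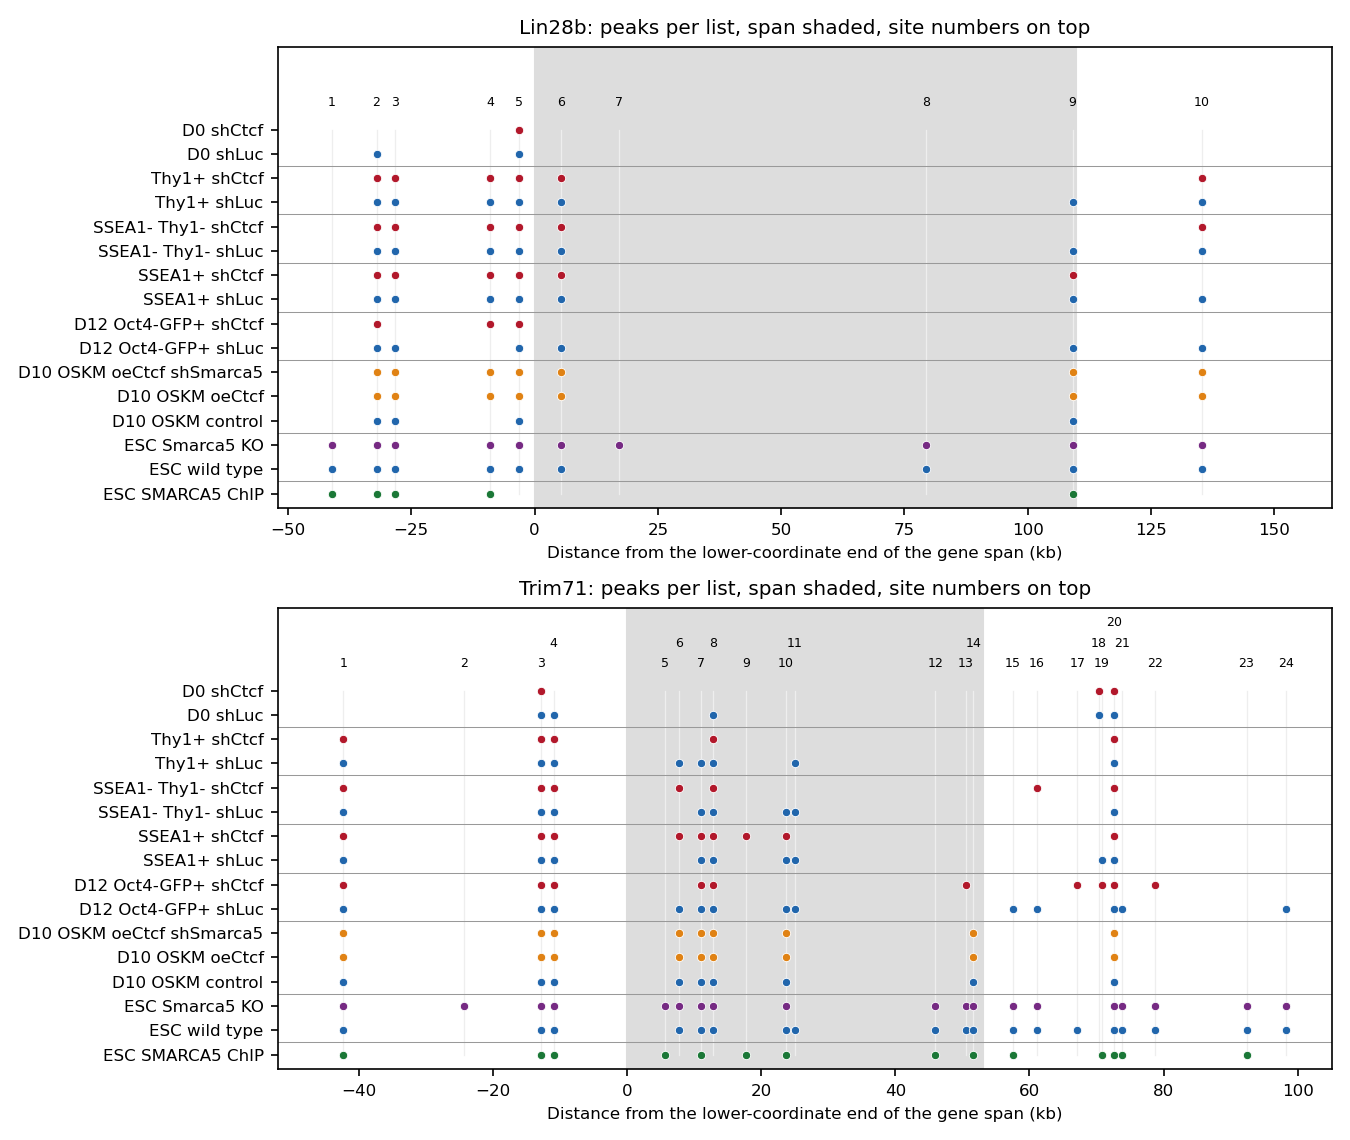
Peaks in the Lin28b (top) and Trim71 (bottom) windows, drawn with distance from the lower-coordinate end of the gene span in kb on the horizontal axis, lists as rows and each dot a site held by that list. Colours are as in the bar chart of counts. Lin28b has dots in most rows at sites 2 to 6, 9 and 10 and a gap over much of its span, while the 24 Trim71 sites include many held by few lists.

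The first comparison of stages set the Thy1+ control list against the day 0 control list. In the 4 windows 13 of 22 Thy1+ peaks were absent from day 0 (59.1%, interval 38.73 to 76.74%), beside 47% of the whole list, and 9 of 11 day 0 peaks were kept, where 3.39% of the whole list were absent. Lin28b supplied 5 of the 13, at sites 3, 4, 6, 9 and 10. Sall4 site 10 and Trim71 site 18 were the 2 day 0 peaks that were absent. With the Thy1+ lists left out, 17 of 26 SSEA1- Thy1- control peaks were absent from day 0 (65.4%), beside 45.4% of the whole list, a check added after the values were seen. In SSEA1- Thy1- cells 5 of 26 peaks were new against Thy1+ cells, beside 13.2% of the whole list, and 2 of 22 were absent, beside 16.4%. In SSEA1+ cells 4 of 29 peaks were new against SSEA1- Thy1- cells, beside 10.7%, and 0 of 26 were absent, which allows a share of up to 11.5%, beside 8.84%. That 0 depends on the overlap asked for: the SSEA1- Thy1- control had 6 Sall4 peaks at 5 sites. With a reciprocal overlap of 50%, 25 of the 26 were kept.

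At day 12 the Oct4-GFP+ control list had 10 new peaks of 34 in the windows against SSEA1+ cells (29.4%, interval 16.83 to 46.17%), beside 17.1% of the whole list, and 5 of 29 SSEA1+ peaks were absent, beside 15.4%. The new peaks were at Sall4 sites 4, 9 and 13, at Lin28a sites 5 and 8 and at Trim71 sites 6, 15, 16, 21 and 24. None was at Lin28b, whose site 4 was absent. All 10 were also in wild-type ESCs (interval 72.25 to 100%), against 81.2% of the new day 12 peaks of the whole list. In wild-type ESCs 20 of 54 peaks were absent from the day 12 control, beside 40.4% of the whole list, and 0 of 34 day 12 peaks were absent from ESCs, which allows up to 8.82%, beside 6.18%.

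Counting day 12 control peaks that were in wild-type ESCs but in no shLuci list of day 0 or Thy1+ cells gave 4 of 8 at Sall4, 4 of 7 at Lin28a, 0 of 6 at Lin28b and 5 of 13 at Trim71. Together these were 13 of 34 (38.2%, interval 23.9 to 54.96%), against 17.2% of the whole day 12 list. Leaving Thy1+ out and asking only for absence at day 0 gave 25 of 34 (73.5%), against 43.9% of the whole list. The genes are known pluripotency genes and were chosen with earlier results on such genes in view, so the share describes these windows only. Of the 9 day 0 control peaks in the windows that were kept in the Thy1+ control, 0 were absent from both day 12 and ESCs. The same share was not counted over the whole lists, so this 0 is not read as a trait of the windows.

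**Figure D4:**
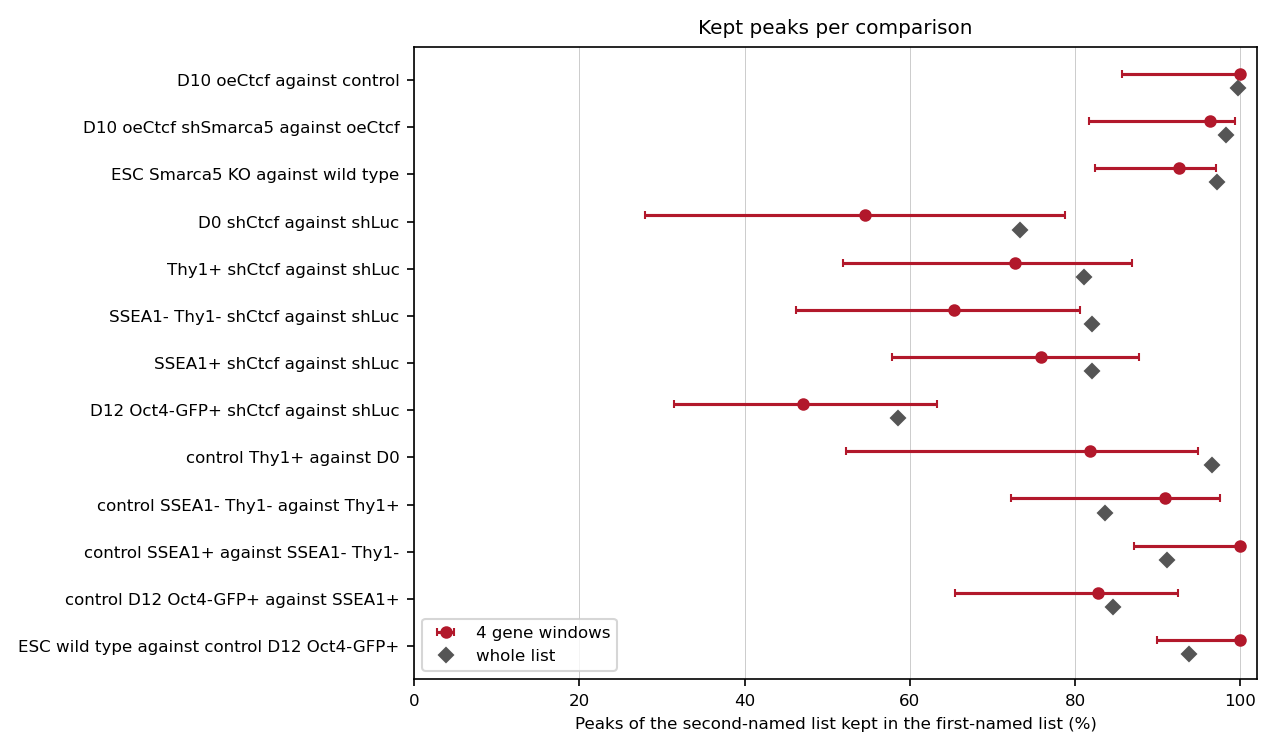
Share of the second-named list's peaks that overlapped a peak of the first-named list (horizontal axis, %), for 13 comparisons down the page. Red points are the 4 gene windows with Wilson 95% intervals and grey diamonds the whole lists. The lowest point of both kinds is day 12 with Ctcf shRNA, at 47.1% in the windows and 58.6% over the whole list.

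With the Ctcf shRNA, fewer peaks were called around the 4 genes in every population, as in the whole lists. At day 12 the Ctcf shRNA list kept 16 of the 34 control peaks in the windows (47.1%, interval 31.45 to 63.26%), and 41.4% of the whole control list were absent. At day 0 it kept 6 of 11, where 26.7% of the whole list were absent. In Thy1+ cells 16 of 22 were kept, where 18.9% of the whole list were absent. The SSEA1- Thy1- list kept 17 of 26 and the SSEA1+ list 22 of 29, where 18% of the whole list were absent in both. The kept share in the windows was below that of the whole list in all 5 populations, but its interval took in the whole-list value in 4 of them. In SSEA1- Thy1- cells it was 65.4% (interval 46.22 to 80.59%) against 82.0%. With windows widened by 100 kb those cells kept 39 of 52 (75%, interval 61.79 to 84.77%), which takes in the whole-list value, and with windows widened by 10 kb 7 of 13 (53.85%, interval 29.14 to 76.79%), which does not. The 5 populations share their cells' origin and the windows many sites, so these are not independent observations.

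By gene, the Sall4 window held 1, 2, 3, 5 and 4 peaks with Ctcf shRNA at day 0, in Thy1+, SSEA1- Thy1-, SSEA1+ and day 12 cells, against 2, 4, 6, 7 and 8 with shLuci. Lin28b held 1, 6, 6, 6 and 3 peaks with Ctcf shRNA, against 2, 7, 7, 7 and 6 with shLuci. Both genes were lower with the Ctcf shRNA in each population. Trim71 held 3, 5, 7, 9 and 10 peaks with Ctcf shRNA, against 5, 8, 8, 9 and 13 with shLuci, lower in all but SSEA1+ cells, where the counts were equal. Lin28a held 1, 4, 5, 5 and 4 peaks with Ctcf shRNA, against 2, 3, 5, 6 and 7 with shLuci, and was lower at day 0, in SSEA1+ and in day 12 cells only. One shared peak more or less moves such counts, since no value exceeds 13.

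The sites themselves differed in how they held up. Of 19 sites in all 4 sorted control lists, 10 were also in all 4 Ctcf shRNA lists (52.6%, interval 31.71 to 72.67%), against 65.1% of 38070 such peaks in the whole lists. The 10 were Sall4 site 5, Lin28a sites 9 and 12, Lin28b sites 2 and 5, and Trim71 sites 1, 3, 4, 8 and 20, so that 5 of the 7 at Trim71 and 2 of the 6 at Lin28b held. With the Thy1+ lists left out, 11 of 23 sites of the other 3 controls were kept throughout (47.8%), against 63.8%. Trim71 site 11, at chr9:114536084-114536501 inside the gene, was absent from all 4 Ctcf shRNA lists, as were 306 of the 38070 (0.804%). Without the Thy1+ lists it was likewise the 1 such site of 23, and 2.88% of the whole class were absent. That site was also in wild-type ESCs, absent from the Smarca5 knockout and in no day 0 or day 10 list. Lin28a site 10 and Lin28b sites 3 and 6 were absent with Ctcf shRNA at day 12 and in no other sorted population, as were 22.9% of the whole class. Sall4 sites 7 and 11, Lin28b sites 9 and 10 and Trim71 site 7 were absent in 2 or 3 of the 4 populations.

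The day 12 control peaks were also split by whether SSEA1+ cells already had them. Of the 10 day 12 control peaks absent from SSEA1+ cells, 2 were in the day 12 Ctcf shRNA list (20%, interval 5.668 to 50.98%), Sall4 sites 4 and 13. Of the 24 that were already in SSEA1+ cells, 14 were (58.3%, interval 38.83 to 75.53%). The intervals of these shares overlap. Over the whole list the shares were 26.7% and 65.1%, in the same order.

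Some peaks were called only with the Ctcf shRNA. There were 5 of 21 such peaks at day 12, beside 13.4% of the whole list, at Lin28b site 4 and Trim71 sites 13, 17, 19 and 22, and 4 of the 5 were in wild-type ESCs, against 71.4% over the whole list. There were 0 of 6 at day 0, which allows up to 50% by the limit of 3 counts (Wilson interval 0 to 39.03%), beside 10.4%. In Thy1+ cells there was 1 of 17, beside 5.5%. In SSEA1- Thy1- cells there were 4 of 21 (interval 7.668 to 40%), beside 5.73%, which lies outside that interval. In SSEA1+ cells there were 3 of 25 (interval 4.167 to 29.96%), beside 4.51%, which lies inside it. Lin28a site 5, at chr4:133973397-133973813 in Dhdds, was in the Ctcf shRNA list and not the control list of Thy1+, SSEA1- Thy1- and SSEA1+ cells, and the other way round at day 12. Trim71 site 6, at chr9:114518805-114519211, was held with the Ctcf shRNA alone in SSEA1- Thy1- and SSEA1+ cells and with shLuci alone in Thy1+ and day 12 cells.

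With added Ctcf at day 10 the windows held all 23 peaks of the OSKM control and 4 more. The list with added Ctcf held 7 peaks at Lin28b, against 4 in the OSKM control, 6 against 5 at Lin28a, 5 against 5 at Sall4 and 9 against 9 at Trim71. Of the 23 control peaks 0 were absent, which allows up to 13%, beside 0.33% of the whole list, and 4 of 27 peaks were new (14.8%, interval 5.916 to 32.48%), beside 17.3% of the whole list. Both shares in the windows were near those of the whole list. The new peaks were Lin28b sites 4, 6 and 10 and Lin28a site 2, which lies in Hmgn2, a gene for a nucleosome-binding protein. All 4 were in wild-type ESCs (interval 51.01 to 100%), against 75.6% of such peaks in the whole list, and 3 were in the SSEA1+ control (interval 30.06 to 95.44%), against 38.4%. Lin28b sites 6 and 10 were also among those absent at day 12 with the Ctcf shRNA, and site 4 was present there.

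With the Smarca5 shRNA beside added Ctcf, 26 of the 27 peaks were kept in the windows (96.3%, interval 81.72 to 99.34%), and 1.72% of the whole list were absent. The 1 absent peak was Sall4 site 3, at chr2:168729704-168730114 in Atp9a, a site with SMARCA5 in ESCs that was kept in the Smarca5 knockout. The 4 peaks that came with added Ctcf all stayed. Of 26 peaks 0 were new, which allows up to 11.5%, beside 0.542%.

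In Smarca5 knockout ESCs 50 of the 54 wild-type peaks were kept (92.6%, interval 82.45 to 97.08%), against 97.1% of the whole list, of which 2.88% were absent. All 12 peaks at Sall4 and all 9 at Lin28b were kept, and 12 of 14 at Lin28a and 17 of 19 at Trim71. The absent ones were Lin28a site 3, at chr4:133968128-133968527 over the Hmgn2 promoter whose bases are printed above, Lin28a site 13, at chr4:134043354-134043753, and Trim71 sites 11 and 17. Lin28a site 3 was the only 1 of the 4 with SMARCA5, where 33.1% of the 2397 absent peaks of the whole list had it. Lin28a site 13 was in 6 sorted lists and kept with the Ctcf shRNA in each of its 3 populations, and Trim71 site 11 was the one absent with the Ctcf shRNA throughout. In the other direction 3 of 53 knockout peaks were new, beside 9.81% of the whole list. They were Lin28b site 7, at chr10:45393582-45393981, Trim71 site 2, at chr9:114486764-114487163, and Trim71 site 5, at chr9:114516670-114517069, which had SMARCA5.

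SMARCA5 peaks lay at 28 of the 54 wild-type CTCF peaks (51.9%, interval 38.85 to 64.61%), against 48.6% of the whole list, where 51.4% had none. By gene these were 7 of 12 at Sall4, 5 of 14 at Lin28a, 5 of 9 at Lin28b and 11 of 19 at Trim71. Seen from SMARCA5, 28 of 32 peaks had wild-type CTCF (87.5%), against 86.1% over the whole list, and 4 did not, where 13.9% of the whole list had none. The 4 were Lin28a site 7 and Trim71 sites 5, 9 and 19. Of these, Trim71 site 5 had CTCF in the knockout, and Trim71 sites 9 and 19 had it in sorted lists. Of the 5 sites in all CTCF lists 4 had SMARCA5, and of the 6 in 1 CTCF list 3 did. These shares were not counted over the whole lists, and so few sites cannot show a difference. Per length, SMARCA5 was densest at Trim71, with 9.144 peaks per 100 kb, and at Lin28b it reached 2.384, against a median of 3.542 over all protein-coding genes.

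Other genes had nearly the same run of counts. By the sum of absolute differences in peaks per widened span over the 15 CTCF lists, Sall4 was most like Snrnp40 (8), Ddx21 (11) and Gon4l (11), while its own counts sum to 80. Lin28a, with 85, was most like Chrna10 (8), Cep70 (9) and Polg (9). Lin28b, with 88, was most like Stxbp3 (6), Tmem147 (6) and 3110082J24Rik (7). Trim71, with 142, had no gene nearer than D430041D05Rik (14), Serinc2 (14) and Arl15 (15). These counts are not set per length, and the lists share cells and start positions.

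Related genes of the same pathways were counted the same way, and 45 of 45 were found in the gene table. They comprise 14 genes of the SALL family and SALL4 partners, 18 of the LIN28 and let-7 pathway and 13 let-7 targets and TRIM-NHL genes. At day 12 the Ctcf shRNA list kept 157 of 279 control peaks of these genes (56.3%), beside 58.6% of the whole list. By gene, 39 of the 45 had fewer peaks with Ctcf shRNA than with shLuci, 3 had more and 3 had as many, where 68.7% of all protein-coding genes had fewer. In SSEA1+ cells 204 of 240 peaks were kept (85%), beside 82.0%, and 23 genes had fewer peaks and 6 more, where 46.2% of all protein-coding genes had fewer. With added Ctcf at day 10, all 229 OSKM control peaks of these genes were kept and 57 of 286 were new (19.9%), beside 17.3% of the whole list. There 30 genes had more peaks and 0 fewer, where 53.0% of all protein-coding genes had more. In Smarca5 knockout ESCs 441 of 460 wild-type peaks were kept (95.9%), beside 97.1%, and 41 of 482 were new (8.51%), beside 9.81%. There 21 genes had more peaks and 4 fewer, where 39.3% of all protein-coding genes had more and 10.5% fewer. SMARCA5 lay at 279 of the 460 wild-type ESC peaks of these genes (60.7%), beside 48.6% of the whole list. The related genes include microRNA genes and neighbours that share peaks, and the protein-coding genes serve only as a rate to read the counts against.

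Of the 45 related genes, 8 had peaks in 1 list and none in the other in some comparison. That share over any comparison was not counted for all protein-coding genes, so shares are given by comparison. At day 0 with Ctcf shRNA against shLuci these were 4 of 45 (8.89%), where 5.25% of all protein-coding genes did so. In Thy1+ cells against day 0 they were 4 of 45 as well, where 6.03% did. SMARCA5 against wild-type CTCF had 3 of 45 (6.67%), where 7.58% did. The day 12 against SSEA1+, SSEA1- Thy1- against Thy1+ and wild-type ESC against day 12 control comparisons had 1 of 45 each (2.22%). Of all protein-coding genes 2.70%, 2.04% and 4.01% did so, in the same order. Sall1, a relative of Sall4, had 3 peaks in the day 12 control and 0 in the SSEA1+ control. Sall3 had 2 in the Thy1+ control and 0 at day 0, Tut4, which adds uridines to let-7 precursors bound by LIN28, had 4 against 0, and Mycn, a let-7 target, had 2 against 0. The let-7c gene Mirlet7c-1 had 1 peak in the Thy1+ control and 0 at day 0, 0 in SSEA1- Thy1- cells and 1 in wild-type ESCs against 0 at day 12. The neighbours Mirlet7f-2 and Mir98 on chromosome X, whose windows share their peaks, had 0 peaks with Ctcf shRNA and 1 with shLuci at day 0, and 0 SMARCA5 peaks beside 3 CTCF peaks in wild-type ESCs. Mirlet7c-1 had 0 SMARCA5 peaks beside 1 CTCF peak. Hmga2, a chromatin protein gene that let-7 silences, had 0 peaks with Ctcf shRNA and 2 with shLuci at day 0, while Mycn had 1 with Ctcf shRNA and 0 with shLuci.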

How the data were processed

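The 15 CTCF lists and 1 SMARCA5 list are BED files of 400 bp intervals on mm10 (GRCm38). The submitters' processing notes name MACS2, HOMER, Bowtie2, Picard, SAMtools, bedtools, deepTools, Trim Galore and FastQC. Versions, settings and pooling were not given in the sources used here. The score deposited by the authors is 0 in every line, so peaks could not be ranked, and 400 bp calls hide partial loss of binding. The 31 ChIP samples gave the 16 lists, and the 28 input samples were not used here.

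Lists were read with Python 3.11.15 and NumPy 2.4.6. Peaks were assigned to RefSeq gene spans (GRCm38.p6) widened by 50000 bp, without exon borders. A peak of 1 list was kept if it overlapped a peak of the other by at least 1 bp, and new or absent otherwise. Each of 14 comparisons gives counts with Wilson 95% intervals (SciPy 1.17.1), beside the same over the whole lists. No test was made. A count of 0 was given the limit of 3 counts over the number of peaks, which differs from the end of its Wilson interval. Overlaps were checked on simulated lists. Figures used matplotlib 3.10.9.

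The 4 genes and the related gene lists were chosen with earlier results of these data known. All sites in the 4 windows are accounted for. The rule for other names takes the genes at a site, the 3 protein-coding genes nearest in peak counts over the 15 CTCF lists (outside the gene's own window, ties in alphabetical order), and up to 4 related genes per comparison with peaks in only 1 of its lists. Alternatives were a reciprocal overlap of 50% and windows widened by 10000 or 100000 bp, and, added after seeing the data, leaving out the Thy1+ lists.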

Additional observations from a re-analysis of the deposited data

Results flagged for a closer look

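Some values moved in opposite directions between populations, and none of these differences was tested. The number of Lin28a peaks with Ctcf shRNA minus that with shLuci was -1 at day 0, 1 in Thy1+ cells, -1 in SSEA1+ cells and -3 at day 12.

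Of single sites, Lin28a site 5 was held only with the Ctcf shRNA in 3 populations and only with shLuci in 1, and Trim71 site 6 in 2 and in 2. Sall4 site 2 was held only with the Ctcf shRNA in 1 population (SSEA1- Thy1-) and only with shLuci in 1 (Thy1+). The same counts of 1 and 1 held for Trim71 site 16 (SSEA1- Thy1- and day 12) and for Trim71 site 19 (day 12 and SSEA1+). The label conflict of the day 3 Thy1+ samples bears on the Thy1+ values, and its part was not tested.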

How the results depend on the processing

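Requiring a reciprocal overlap of 50% moved none of the 28 shares of kept and new peaks by more than their interval, nor did windows widened by 100 kb. With windows widened by 10 kb, 24 of 28 stayed within it and 4 did not: the kept share with Smarca5 shRNA beside added Ctcf was 100% (13 of 13), the share of new peaks was 0% with Ctcf shRNA in Thy1+ cells (0 of 8) and 0% in SSEA1+ against SSEA1- Thy1- control cells (0 of 13), and the share of wild-type ESC peaks with SMARCA5 was 37.5% (9 of 24). The narrower windows hold fewer peaks. No paired analysis was possible because each group has 1 pooled list. For the same reason leaving out replicates was not run, and a score threshold was not run because every score is 0. Peak height and read depth are unknown, so an absent peak can be a weaker one that was not called, and a longer list has more chances to hold a site.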
